A study of Mus musculus with 14 samples.

Results

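Albumin and the other secreted carriers of blood plasma are made mainly by hepatocytes, and their transcripts are among the most abundant of the liver. The set described here holds 10 of the 48794 genes in the deposited count and TPM tables (TPM are transcript levels scaled by length and library). It was given as a list of mouse symbols, each matched to 1 Ensembl ID, and the rule itself uses no measured value. Its members are Alb, Gc, Ttr, Rbp4, Ahsg, Fetub, Ambp, Itih1, Itih4 and Vtn.

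RNA came from the livers of wild-type (WT) mice that had received no treatment, per the labels. In 12 libraries it came from CD45+ leukocytes sorted by flow cytometry from needle biopsies, at 2500, 5000, 10000 or 20000 cells (3 libraries per number). Bulk liver tissue, the control of the series, gave the other 2 libraries. All libraries were made with the SMART-seq v4 method for low amounts of RNA, followed by tagmentation. The labels give no strain, age or sex of the mice and do not state whether a group's libraries stem from different mice, so every p-value below is set against a spread between samples that may be technical.

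Total counts ranged from 6723357 to 14496314 per library. Between libraries of the same group the chi-square per degree of freedom was 1.52 in bulk liver and 2.22 to 13.0 among the sorted pairs, so no pair agreed within sampling noise, and each library was counted once. The labelled cell type was checked against 8 leukocyte genes, all of which were higher in the sorted libraries, as were 41.8% of all genes tested. Ptprc, which encodes CD45, went from 10.4 ± 2.58 CPM in bulk liver (SD, n = 2) to 2531 ± 86.6 CPM in the sorted libraries (SD, n = 12). CPM are counts scaled to a common library size, here by the library total unless stated otherwise.

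As background, hepatocytes release these proteins into the blood, where each carries or holds a ligand. Albumin binds fatty acids, bilirubin and many drugs, and the protein of Gc, a relative of albumin, binds vitamin D and actin monomers. Transthyretin (Ttr) carries thyroid hormone and joins the retinol carrier encoded by Rbp4. Ahsg and Fetub encode the fetuins, of which fetuin-A binds calcium phosphate. Ambp encodes a precursor that is cut into a small haem-binding protein and bikunin, to which inter-alpha-trypsin inhibitor heavy chains such as that of Itih1 are attached. Itih4 encodes a related heavy chain, and Vtn encodes vitronectin, an adhesive protein bound by integrins. Genes of this kind are driven in hepatocytes by FOXA, HNF4 and C/EBP factors, among others.

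The members are spread over 7 chromosomes of GRCm38. Alb (ENSMUSG00000029368) spans chr5:90460897-90476602 on the plus strand, and its relative Gc (ENSMUSG00000035540) spans chr5:89417522-89457898 on the minus strand. Ahsg (chr16:22891277-22899449) and Fetub (chr16:22918334-22939778) are neighbours on the plus strand, and Itih4 (chr14:30886476-30902353, plus strand) and Itih1 (chr14:30929180-30943289, minus strand) are another close pair. Vtn (ENSMUSG00000017344) spans chr11:78499091-78502324 on the plus strand in 6 exons. Rbp4 (chr19:38116629-38125281) and Ambp (chr4:63143275-63154799) lie on the minus strand. All 10 are protein-coding, and only Ahsg shares exon sequence with another annotated gene, 62 bases with the antisense Gm30505. Whether the counting used strand is not stated in the labels, so reads from those bases cannot be assigned to a strand.

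The promoters of Alb, Gc, Vtn, Itih1 and Itih4 are shown because the later results set Alb against these genes. Each run is the 150 bases before the RefSeq transcript start, or for Vtn before the GENCODE start, which lies further upstream, 5′ to 3′ on the gene's strand, from RefSeq on GRCm38.p6: chr5:90460720-90460869 (plus) for Alb, chr5:89457899-89458048 (minus) for Gc, chr11:78498941-78499090 (plus) for Vtn, chr14:30943290-30943439 (minus) for Itih1 and chr14:30886326-30886475 (plus) for Itih4. Capitals mark, on either strand, GTTAAT (a motif of many liver promoters), TGTTTGC (a forkhead site bound by FOXA factors), CCAAT and TATAAA.
Alb: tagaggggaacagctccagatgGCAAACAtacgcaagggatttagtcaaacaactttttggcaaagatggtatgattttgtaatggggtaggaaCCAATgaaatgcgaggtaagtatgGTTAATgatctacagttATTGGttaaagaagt
Gc: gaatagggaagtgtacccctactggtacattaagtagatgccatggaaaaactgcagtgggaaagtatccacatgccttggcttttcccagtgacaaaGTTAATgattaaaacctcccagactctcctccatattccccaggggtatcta
Vtn: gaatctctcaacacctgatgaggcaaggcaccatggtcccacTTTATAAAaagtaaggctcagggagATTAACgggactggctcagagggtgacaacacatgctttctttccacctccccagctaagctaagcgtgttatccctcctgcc
Itih1: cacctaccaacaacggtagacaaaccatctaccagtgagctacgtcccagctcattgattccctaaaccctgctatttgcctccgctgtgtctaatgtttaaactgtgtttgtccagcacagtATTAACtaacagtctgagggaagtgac
Itih4: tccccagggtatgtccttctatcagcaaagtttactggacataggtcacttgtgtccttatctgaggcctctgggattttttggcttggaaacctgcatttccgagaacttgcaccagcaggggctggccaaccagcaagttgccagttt
Counted from the RefSeq start in each case, which for Vtn lies downstream of the end of the printed run, GTTAAT occurs 32 to 27 bases before the start of Alb, 52 to 47 before that of Gc, 27 to 22 before that of Itih1 and 112 to 107 before that of Vtn. The run of Itih4 holds none of the 4 motifs. In windows of 250 bases before the start, GTTAAT was found in 4 of 11 windows of 9 members and in 6.43% of 32851 mouse promoters. TGTTTGC was found in 4 of 11, those of Alb, Ambp, Ahsg and Fetub, and in 4.30% of all promoters. CCAAT occurred in 5 of 11 against 33.8%, and TATAAA in 3 of 11 against 12.4%. Fetub and Rbp4 have 2 windows each, and the window of Ttr was not used. The motifs were chosen after these sequences had been read, and a match describes letters only.

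The first comparison asked how much of each plasma carrier transcript remained once leukocytes had been sorted out of the liver. All 10 members fell, with log2 fold changes of -8.96 to -10.28, and all 12 sorted libraries lay below both bulk libraries for each of them. Among all 16294 genes tested, 80.3% differed, 38.5% fell and 21.5% had no overlap in that direction. The members thus ranked from 180 (Ttr) to 597 (Vtn) when all tested genes were ordered from the largest fall, and 6.27% of all genes passed with a fold change of -7 or lower on that scale. Fewer hepatocytes in a sample and less RNA per cell cannot be told apart in such bulk measurements.

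In bulk liver, Alb, the main protein of plasma, had 20707 and 21256 CPM. In sorted libraries it had 36.5, 58.8 and 56.7 CPM at 2500 cells, 53.9, 55.9 and 56.0 at 5000, 42.1, 56.1 and 46.5 at 10000, and 46.4, 37.0 and 38.3 at 20000. The sorted values ran from 36.5 to 58.8 CPM, and the libraries of 5000 cells were the most even. Behind them stood 296 to 810 counts per library, against 157483 and 170776 in bulk. Alb changed by -9.97 on the log2 scale (SE 0.10; adjusted p = 8.4e-21). This and every adjusted p of a fold change below come from edgeR's quasi-likelihood F test, adjusted over all genes tested by the Benjamini-Hochberg method.

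Gc, the vitamin D carrier, had 7743 and 7529 CPM in bulk liver. Its sorted values were 17.4, 27.7 and 17.4 CPM at 2500 cells, 21.7, 24.4 and 35.1 at 5000, 20.6, 23.5 and 20.5 at 10000, and 18.0, 15.5 and 18.0 at 20000. The third library of 5000 cells was the highest of all, and the libraries of 20000 cells lay at or near the bottom. Gc changed by -9.68 on the log2 scale (SE 0.11; adjusted p = 4.5e-19, edgeR).

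Ttr and Rbp4, whose proteins travel through plasma as a complex, had the lowest residual levels of the 10 by library totals, although those of Rbp4 and Ambp differed by less than their SDs. Ttr went from 3672 and 3797 CPM to between 4.66 and 9.63 CPM (median 7.31), with a log2 fold change of -10.28 (SE 0.09; adjusted p = 8.6e-24, edgeR). Rbp4 went from 4632 and 4564 CPM to between 7.56 and 12.7 CPM (median 9.81), with a log2 fold change of -10.07 (SE 0.07; adjusted p = 4.2e-27, edgeR). Neither range came near the bulk values. Ttr lies on chromosome 18 (20665280 to 20674321, plus strand).

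The fetuin genes fell to a similar extent from very different levels. Ahsg, which encodes fetuin-A, had 6601 and 6557 CPM in bulk liver and 12.8 to 19.3 CPM in sorted libraries (log2 change -9.92 with SE 0.06; adjusted p = 7.0e-28, edgeR). Fetub, which encodes fetuin-B, had 362 and 352 CPM in bulk liver and 0.232 to 1.42 CPM in sorted libraries (log2 change -9.74 with SE 0.11; adjusted p = 4.8e-23, edgeR). Fetub rested on 2 to 19 counts per sorted library. Its lowest value, 2 counts in the third library of 2500 cells, has an exact Poisson 95% interval of 0.0282 to 0.840 CPM, which covers counting error only.

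Of the inter-alpha-inhibitor genes, Ambp kept the least. Ambp, the precursor of bikunin, went from 2467 and 2492 CPM to between 3.68 and 8.24 CPM (log2 change -10.05 with SE 0.09; adjusted p = 7.9e-23, edgeR). Itih1 had 591 and 598 CPM in bulk liver. It had 1.95, 3.37 and 3.02 CPM at 2500 cells, 2.11, 3.93 and 4.24 at 5000, 3.69, 1.02 and 1.54 at 10000, and 2.08, 2.70 and 1.42 at 20000. High and low values occurred side by side at 10000 cells, from 10 to 35 counts. Itih1 changed by -9.06 on the log2 scale (SE 0.12; adjusted p = 5.0e-19, edgeR).

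Itih4 had 1300 and 1343 CPM in bulk liver. It had 10.9, 7.13 and 4.53 CPM at 2500 cells, 6.23, 3.10 and 8.09 at 5000, 5.38, 7.22 and 6.57 at 10000, and 4.02, 4.42 and 3.88 at 20000. Its highest value was in the first library of 2500 cells, the library with the lowest Alb of all. Itih4 changed by -9.04 on the log2 scale (SE 0.14; adjusted p = 2.4e-16, edgeR).

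Vtn, the vitronectin gene, had 2234 and 2291 CPM in bulk liver. It had 6.82, 13.9 and 10.9 CPM at 2500 cells, 11.4, 13.4 and 16.9 at 5000, 8.86, 11.6 and 12.6 at 10000, and 7.44, 6.36 and 8.15 at 20000. All libraries of 5000 and of 10000 cells were above all libraries of 20000 cells. Vtn changed by -8.96 on the log2 scale (SE 0.10; adjusted p = 9.8e-20, edgeR), and the estimates of Itih4 and Vtn differ by less than their SEs.

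These fold changes are relative to the other genes, since edgeR scaled the libraries by TMM factors, a trimmed mean of log ratios. With library totals in place of TMM the median of all genes moved from 0.17 to 1.37 on the log2 scale, and the split of calls moved from 6806 higher and 6273 lower to 10738 higher and 3654 lower. The members' median moved from -9.83 to -8.62, and all 10 remained called as lower.

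Levels of different genes can be set side by side only per transcript length, as in the deposited TPM. In bulk liver the order of mean TPM levels was Alb (9300), Rbp4 (5036), Ahsg (4093), Gc (4036), Ttr (2937), Ambp (1955), Vtn (1427), Itih4 (409), Fetub (214) and Itih1 (170). No neighbours in that order overlapped between the 2 bulk libraries, although Ahsg and Gc were only 1.01-fold apart. In sorted cells the order of mean TPM levels was Alb (31.1), Gc (18.0), Rbp4 (15.5), Ahsg (13.8), Vtn (9.98), Ttr (7.87), Ambp (6.14), Itih4 (3.20), Itih1 (1.05) and Fetub (0.883). There every pair of neighbours overlapped in range over the 12 libraries. Alb was nevertheless above Gc within each of the 12, whereas Gc was above Rbp4 in 8, Vtn above Ttr in 8 and Itih1 above Fetub in 6.

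**Figure D1:**
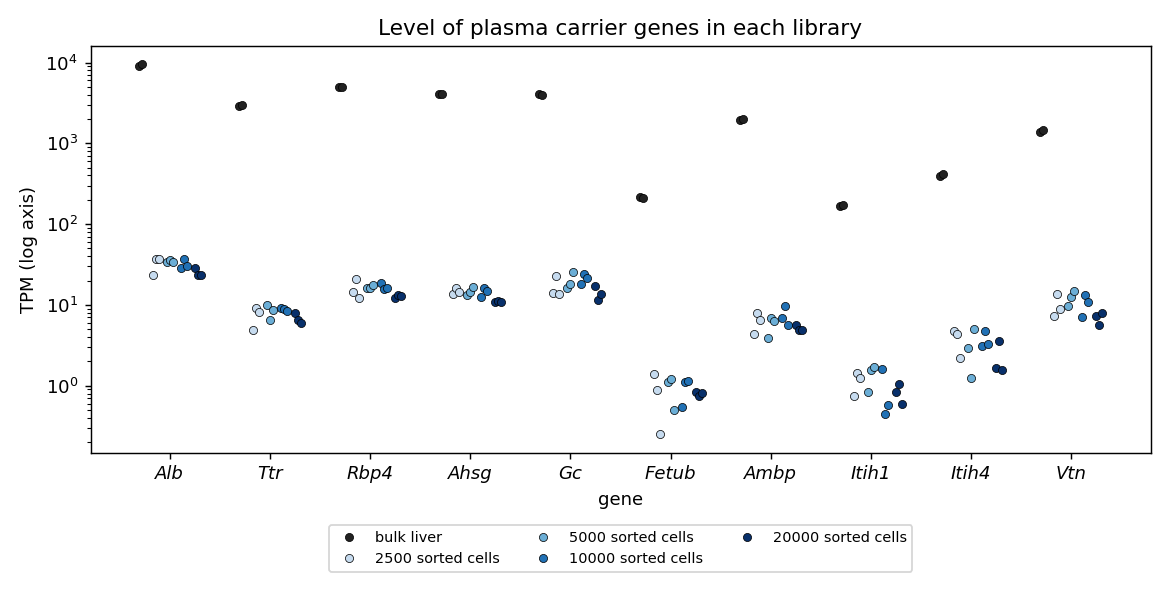
TPM of each member (log axis) in every library, with the 2 bulk libraries in black and the 12 sorted libraries in shades of blue by number of cells. Bulk Alb has a mean of 9300 TPM and sorted Alb one of 31.1 TPM, and the sorted order puts Gc and Vtn higher among the 10 than the bulk order does.

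The residual level, meaning a sorted library's CPM as a percentage of the bulk mean, was 0.254 ± 0.0423% (SD, n = 12; 0.195 to 0.328%) for the 10 members summed. The members together took 5.05 ± 0.0332% (SD, n = 2) of all counts in bulk liver and 0.0129 ± 0.00214% (SD, n = 12) in sorted cells. The residual depends on the scaling: the same sum came to 0.110% with TMM factors and to 0.364% in TPM. A factor per library leaves the differences between members within a library as they are, but TPM changes them, since Itih4 then kept 0.783% and Vtn 0.699%.

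The residual levels fell into a lower and a higher range. Ttr had 0.188 ± 0.0384%, Rbp4 0.215 ± 0.0315%, Ambp 0.217 ± 0.0550%, Alb 0.232 ± 0.0407% and Ahsg 0.239 ± 0.0305% (SD, n = 12 for each). Fetub had 0.265 ± 0.107% and Gc 0.284 ± 0.0720%. Itih1 had 0.435 ± 0.178%, Itih4 0.451 ± 0.167% and Vtn 0.473 ± 0.143%. Single libraries of Itih1 (0.171 to 0.712%) and Itih4 (0.235 to 0.828%) overlapped those of Alb (0.174 to 0.280%), and those of Vtn (0.281 to 0.749%) did not, although in TPM the ranges of Vtn (0.393 to 1.06%) and Alb (0.253 to 0.400%) overlapped.

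**Figure D2:**
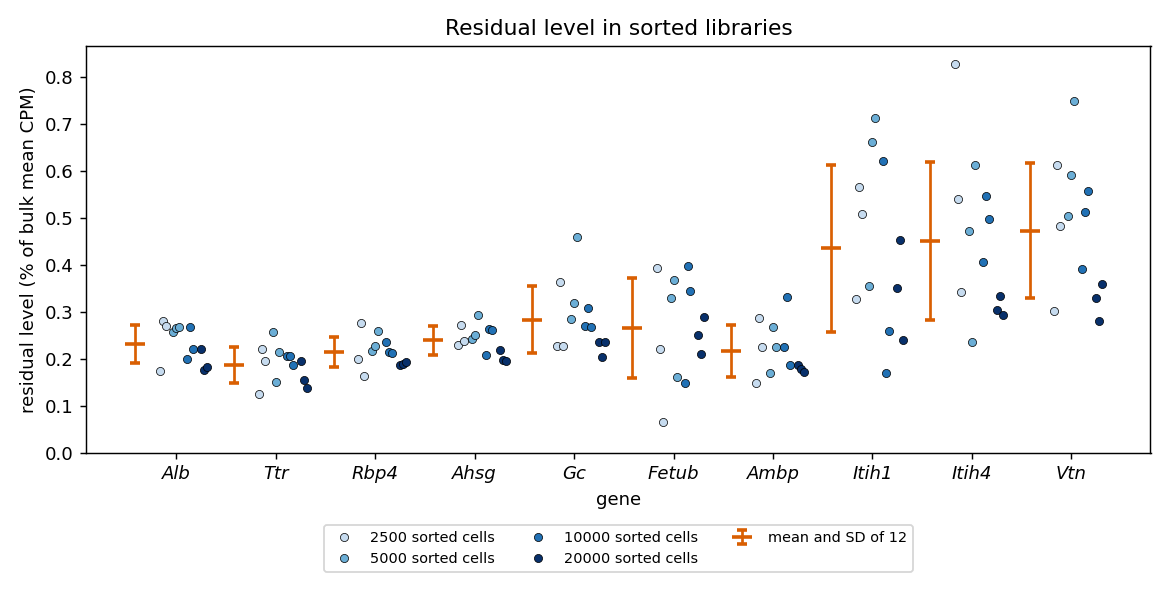
Residual level of each member as a percentage of its bulk mean CPM, 1 point per sorted library and an orange mean with SD over the 12 libraries. Ttr to Ahsg centre on 0.188 to 0.239%, and Itih1, Itih4 and Vtn centre on 0.435 to 0.473% with a wider spread.

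A ratio to Alb within the same library shows whether the carriers kept the proportions they have in liver, and the library's scaling cancels in it. Alb itself ranked 282 of the 16294 tested genes ordered from the largest fall, so most genes tested rose relative to Alb. The share of all genes with every sorted library above both bulk libraries by this ratio was not computed. Vtn was 1.99-fold higher relative to Alb in sorted cells than in bulk liver, with all 12 sorted libraries above both bulk libraries. Its mean log2 ratio to Alb was -3.21 in bulk and -2.22 ± 0.26 (SD, n = 12) in sorted cells. The exact two-sided permutation p was 0.0110, the smallest that the 91 assignments of 14 libraries allow, and 0.0989 after Benjamini-Hochberg adjustment over the 9 ratios computed. No ratio could pass an adjusted threshold of 0.05 in this design on its own, even at that smallest p.

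Itih4 was 1.87-fold and Itih1 1.79-fold higher relative to Alb, each above both bulk libraries in 11 of 12 (exact permutation p = 0.110 and 0.0989, adjusted 0.297 for both). The exceptions were the second library of 5000 cells for Itih4 and the second library of 10000 cells for Itih1. Gc was 1.21-fold higher (11 of 12; exact p = 0.165, adjusted 0.297), and Ttr stood at 0.811 of its bulk ratio (10 of 12 below both bulk libraries; exact p = 0.143, adjusted 0.297). Rbp4, Ahsg, Fetub and Ambp differed from their bulk ratio by -0.10, 0.06, 0.16 and -0.10 on the log2 scale. For these the sorted libraries lay on both sides of the bulk pair.

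By number of cells, the ratio of Vtn to Alb relative to bulk was 1.90-fold for 2500, 2.31-fold for 5000, 2.12-fold for 10000 and 1.68-fold for 20000 cells, with 3 of 3 libraries above both bulk libraries each time. For Itih4 the folds were 2.28, 1.56, 2.12 and 1.64 in the same order, and for Itih1 1.96, 2.12, 1.36 and 1.80. As shares of the members' own counts, Vtn went from 4.48 ± 0.0493% in bulk to 8.17 ± 1.31% in sorted cells, Itih4 from 2.61 ± 0.0417% to 4.70 ± 1.91% and Itih1 from 1.18 ± 0.00210% to 2.01 ± 0.722%. Alb went from 41.5 ± 0.496% to 37.9 ± 2.92% (SD, n = 2 and 12).

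The same ratios were taken to the summed counts of 20 intracellular hepatocyte genes in place of Alb, a comparison added after the data had been seen. Alb itself then differed by only 0.06 on the log2 scale (6 of 12 libraries on each side of the bulk pair). Vtn was 2.08-fold higher (12 of 12; exact permutation p = 0.0110, adjusted 0.110 over 10), Itih4 1.96-fold (12 of 12; exact p = 0.0220, adjusted 0.110), Itih1 1.87-fold (11 of 12; exact p = 0.0769, adjusted 0.247) and Gc 1.26-fold (12 of 12; exact p = 0.0989, adjusted 0.247). Since each ratio shifts by the 0.06 of Alb, the order of the members is the same by construction. The share of all genes above the bulk pair was not computed for these ratios either.

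**Figure D3:**
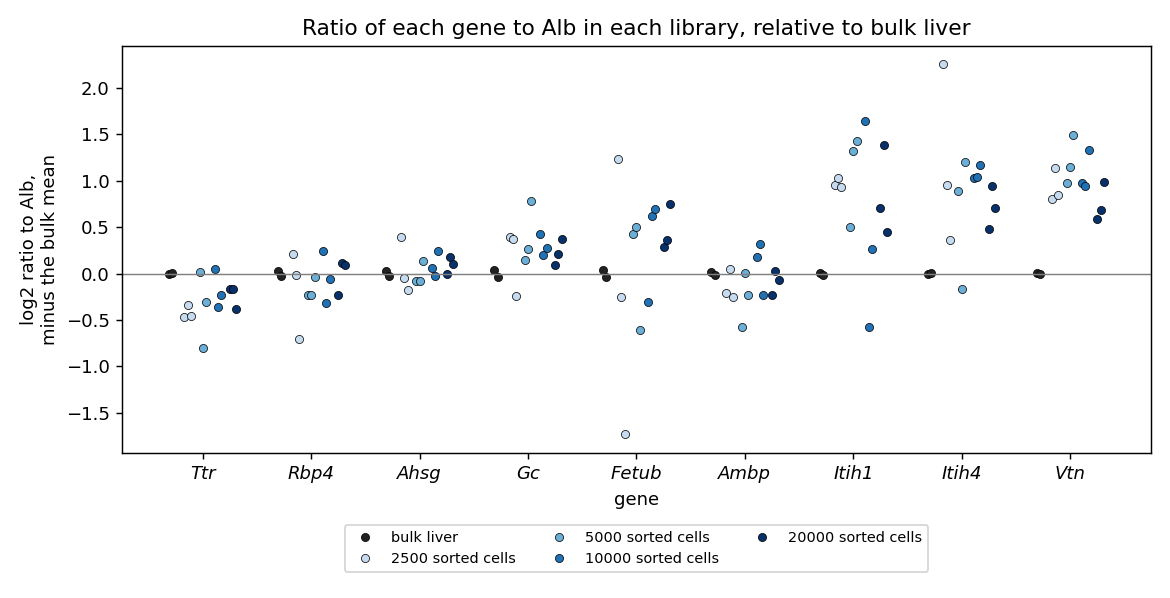
Log2 ratio of each member to Alb in the same library, less the bulk mean, 1 point per library. All 12 sorted points of Vtn lie above both bulk points (mean 0.99), those of Itih4 and Itih1 spread widely around 0.91 and 0.84, and those of Rbp4, Ahsg and Ambp lie on both sides of 0.

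The next comparison asked whether the residual moved with the number of cells sorted. No member passed in the slope per doubling of the cell number (0 of 10, where 0.0811% of 14795 tested genes passed), nor in 2500 against 20000 cells (0 of 10, all genes 0.419%), 5000 against 20000 (0 of 10, all genes 0.0879%), 10000 against 20000 (0 of 10, all genes 0.304%) or the test of any difference (0 of 10, all genes 0.297%; all by edgeR with Benjamini-Hochberg adjustment). At an unadjusted p under 0.05 there were 2 members in the slope, 3, 4 and 1 in the pairs in that order and 2 in the test of any difference. The corresponding shares of all genes were 10.7%, 13.3%, 8.13%, 10.2% and 10.8%. DESeq2 gave 1 member, Vtn, in 5000 against 20000 cells, and without a filter on low counts edgeR gave 3 there (Vtn, Gc and Alb) and 2 in the test of any difference. Over all genes, these settings called 87 of 14795, 203 of 28315 and 605 of 28315 in that order. The main fit called 13 of 14795 genes in 5000 against 20000 cells and 44 in the test of any difference.

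The estimates leaned one way. The slope was below 0 in 9 of 10 members, Fetub being the exception, with a median of -0.11 per doubling of the cell number, while 52.2% of all genes had a slope below 0. Other lists shared this lean, with 18 of 20 other secreted, 15 of 18 intracellular hepatocyte, 7 of 7 relative and 9 of 9 Kupffer cell genes. Slopes below 0 were fewer among cholangiocyte (1 of 3) and erythroid genes (0 of 5). Of 12 hepatocyte regulator genes only Cebpa and Cebpb entered the input tests, with 0 of 2 slopes below 0. Cebpb was higher in sorted cells than in bulk liver, so this pair does not stand for the whole list. The mean CPM at 20000 cells was the lowest of the 4 inputs in 9 of 10 members and in 31.5% of all genes. All 3 libraries of 5000 cells lay above all 3 of 20000 cells for 5 of 10 members, against 8.98% of all genes. The same held for 2500 cells in 2 of 10 (8.57%) and for 10000 cells in 5 of 10 (13%). The members share their libraries, so these counts are not 10 separate observations.

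Alb had a mean of 50.7 ± 12.3 CPM at 2500 cells, 55.3 ± 1.18 at 5000, 48.2 ± 7.18 at 10000 and 40.6 ± 5.10 at 20000 (SD, n = 3 each). Its slope was -0.12 per doubling (SE 0.05; adjusted p = 0.413, edgeR), and 5000 exceeded 20000 cells by 0.45 on the log2 scale (SE 0.15; adjusted p = 0.430, edgeR). The largest estimate of that pair was that of Vtn, at 0.93 (SE 0.24; adjusted p = 0.201, edgeR), from 13.9 ± 2.81 against 7.32 ± 0.899 CPM. For Gc the estimate was 0.66 (SE 0.20; adjusted p = 0.337, edgeR), from 27.1 ± 7.11 against 17.2 ± 1.42 CPM. For 2500 against 20000 cells the largest was that of Itih4, at 0.88 (SE 0.34; adjusted p = 0.267, edgeR). None of these passed the adjusted threshold with 3 libraries per input.

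Summed levels of other lists across inputs can be set beside those of the members. The 20 intracellular hepatocyte genes summed to 89.0, 84.4, 77.9 and 62.3 CPM from 2500 to 20000 cells, and the members to 131, 148, 130 and 105 CPM. A list of 22 other secreted liver genes summed to 481, 532, 484 and 437 CPM. Markers of stellate cells and fibroblasts summed to 42.4, 39.3, 37.7 and 32.8 CPM, and those of Kupffer cells to 924, 720, 905 and 666 CPM. Markers of cholangiocytes instead summed to 10.4, 11.6, 12.1 and 14.3 CPM, and erythroid genes to 24.0, 36.8 and 61.4 CPM up to 10000 cells, with the sum at 20000 cells between the latter pair. Like the members, the intracellular, secreted, stellate and Kupffer sums were lowest at 20000 cells. Of these, only the secreted sum peaked at 5000 cells as the members did. The part of these cells' RNA in the members' differences was not tested.

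**Figure D4:**
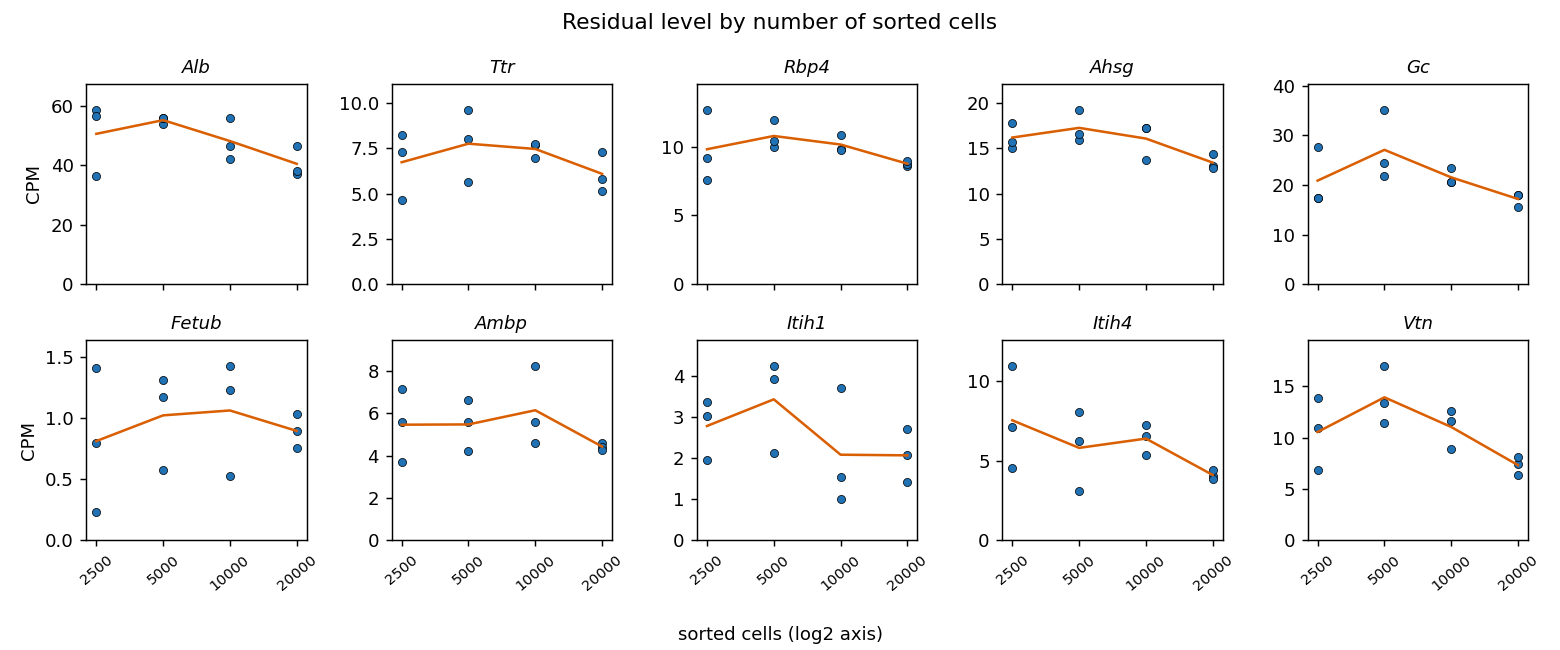
CPM of each member in every sorted library by number of sorted cells (log2 axis), with an orange line through the mean of 3 libraries per input. Alb runs from 55.3 CPM at 5000 cells to 40.6 at 20000, and 9 of 10 members have their lowest mean at 20000 cells, Fetub being the exception.

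Libraries of the same input differed from one another by more than counting error for most members. Within inputs the chi-square per degree of freedom (8 in all) was 10.8 for Alb, 9.37 for Gc, 7.04 for Itih4 and 5.26 for Vtn. It was 4.07 for Itih1, 3.39 for Ambp and 3.13 for Ttr, and 1.97 for Rbp4, 1.89 for Fetub and 1.50 for Ahsg. For Alb, counting alone would give a coefficient of variation of 4.62%, and the libraries of an input varied by 15.6%. For Fetub, which had the fewest counts, the corresponding values were 33.0% and 45.4%.

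Some members followed Alb from library to library. Over the 12 sorted libraries, log2 CPM of Vtn correlated with that of Alb at Pearson r = 0.85 (permutation p = 0.00058, adjusted 0.00522 over the 9 relations computed) and Spearman rho = 0.79 (adjusted permutation p = 0.0223). Pearson r was 0.80 for Ahsg (p = 0.00265, adjusted 0.0119), 0.72 for Ambp (p = 0.00873, adjusted 0.0229), 0.69 for Gc (p = 0.0102, adjusted 0.0229) and 0.68 for Ttr (p = 0.0151, adjusted 0.0273), all by permutation. Spearman's rho was 0.77, 0.73, 0.61 and 0.68 for these 4 (p = 0.00495, 0.00903, 0.0403 and 0.0190; adjusted 0.0223, 0.0271, 0.0726 and 0.0428). Rbp4 (0.38), Itih1 (0.25), Itih4 (0.01) and Fetub (-0.20) did not pass, with adjusted permutation p of 0.333, 0.547, 0.988 and 0.633. Their rho was 0.38, 0.31, 0.17 and -0.15 (adjusted permutation p = 0.341, 0.426, 0.651 and 0.651). The share of all genes that would pass the same test with Alb was not computed.

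Without the 2 libraries farthest from the median of Alb, the first of 2500 cells and the second of 20000 cells, r was 0.74 for Vtn, 0.82 for Ahsg, 0.61 for Ambp, 0.56 for Gc and 0.48 for Ttr. Leaving out the first library of 2500 cells alone left 2 of the 5 relations past the threshold, and leaving out the second of 20000 cells left 3. With each input centred on its own mean, r was 0.76 for Vtn, 0.77 for Ambp, 0.66 for Ttr, 0.63 for Ahsg and 0.48 for Gc. It was -0.36 for Itih4. Vtn thus varied with Alb between libraries. Without the 2 libraries r was 0.35 for Itih4.

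The relatives of the members were mostly as low in sorted cells as the members. Of 11 listed relatives of albumin, the fetuins, the heavy chains and the retinol-binding proteins, 9 were tested, 8 fell and 0 rose. Among all genes tested, 38.5% fell and 41.8% rose. Kng1, the kininogen gene, had a log2 fold change of -9.33 (residual 0.362 ± 0.0914%), and Hrg, a histidine-rich plasma protein of the same family, one of -9.45 (0.329 ± 0.174%). Itih2 and Itih3, which encode the other heavy chains joined to bikunin, had -9.59 (0.300 ± 0.212%) and -9.60 (0.299 ± 0.124%), so their mean residual was below those of Itih1 and Itih4 with overlapping spreads. The median log2 fold change of the tested relatives was -9.45, beside 0.17 over all genes.

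A pair of relatives, singled out after their values were seen, departed from the rest. Afp, the fetal counterpart of albumin, had 2.61 ± 0.532 CPM in bulk liver and 6.46 ± 1.38 CPM in sorted cells. The log2 change of Afp was 0.10 (SE 0.31; adjusted p = 0.774, edgeR) with TMM factors and 1.30 (adjusted p = 0.00067, edgeR) with library totals. Itih5, a heavy-chain relative, had 19.5 ± 0.870 CPM in bulk liver and 25.9 ± 2.37 CPM in sorted cells, and its direction turned with the scaling, from -0.80 (adjusted p = 4.7e-06, edgeR) with TMM factors to 0.40 (adjusted p = 0.00569, edgeR) with library totals.

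Other secreted liver proteins gave a similar picture with exceptions. All 22 of a list of transport, clotting and inhibitor genes fell, with a median log2 fold change of -9.31 and a median residual over genes of 0.368%, beside 0.252% over the 10 members and 0.217% over the 20 intracellular hepatocyte genes, all 20 of which also fell. The share of all tested genes that fell was 38.5%. Serpina3k, a serine protease inhibitor, kept 0.589 ± 0.109%, Apoa1 and Apoa2, the apolipoproteins of high-density lipoprotein, 0.303 ± 0.0526% and 0.166 ± 0.0377%, and Fgb, a fibrinogen chain, 0.341 ± 0.0624%. Among intracellular genes Cyp3a11, a drug-metabolising cytochrome, kept 0.143 ± 0.0354%, Cyp2e1 0.135 ± 0.0348% and Adh1, an alcohol dehydrogenase, 0.285 ± 0.0460% (SD, n = 12 for each). The residuals of Itih1, Itih4 and Vtn were above the median of both lists, but within the range of single genes in each, 0.0450 to 7.57% for secreted proteins and 0.0833 to 1.82% for intracellular ones. The upper ends belong to Hp, the haptoglobin gene, and Ass1, a urea-cycle gene, named after their values were seen.

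Defining markers of other liver cells were also measured. The 9 Kupffer cell genes were at 93.4 to 163% of their bulk sum in sorted libraries by library totals, where 4 were called higher and 0 lower, but at a mean of 52.0% with TMM factors, where 0 were called higher and 9 lower. By library totals, the 8 genes of sinusoidal endothelium summed to 65.0 to 87.3%, the 8 of stellate cells and fibroblasts to 8.55 to 16.2% and the 5 of cholangiocytes to 7.27 to 11.5%. Fcgr2b, at 344 ± 19.5% of bulk, made up most of the endothelial sum, and the other 7 genes of that list stood at 18.6 to 57.3%. Ecm1, at 26.1 ± 6.49% of bulk, made up most of the stellate and fibroblast sum, and the other genes of that list stood at 2.91 to 29.3%. Of the cholangiocyte genes, Krt19 had 0 counts, Sox9 10, Krt7 142, Spp1 382 and Epcam 832 over all 12 sorted libraries, and Krt7 and Epcam stood at 112 ± 46.7% and 238 ± 47.2% of bulk. The 6 erythroid genes varied the most relative to their mean, at 15.5 ± 8.08% (SD, n = 12), from 1.65 to 27.3%. The part of these cells in the members' residual was not tested.

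Receptors and partners of the carriers went in both directions. Of 15 listed genes 11 were tested, 4 rose and 7 fell (4 and 5 with library totals), where 41.8% of all genes rose and 38.5% fell. Fcgrt, the receptor that rescues albumin and IgG from breakdown, had 179 ± 0.663 CPM in bulk liver and 84.1 ± 7.11 CPM in sorted cells (log2 change -2.30; adjusted p = 3.9e-17, edgeR). Lrp1, an endocytic receptor of hepatocytes and macrophages, fell by 2.39 on the log2 scale (adjusted p = 1.2e-13, edgeR). Cd44, the receptor of the hyaluronan to which the heavy chains are transferred, rose from 8.60 ± 1.42 to 363 ± 20.8 CPM (log2 change 4.20; adjusted p = 4.6e-18, edgeR), and Plaur, the urokinase receptor that also binds vitronectin, from 0.702 ± 0.0632 to 105 ± 8.40 CPM (log2 change 6.01; adjusted p = 7.7e-16, edgeR). The vitronectin receptor chains Itgav and Itgb3, named after their values were seen, rose by 1.34 and 3.25 on the log2 scale (adjusted p = 1.1e-07 and 1.5e-05, edgeR). A further such chain, Itgb5, did not rise, with a log2 change of -1.31 (adjusted p = 1.0e-09, edgeR). With library totals its change was -0.10 (adjusted p = 0.403, edgeR).

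Of 12 transcription factor genes that drive hepatocyte genes, 11 fell and 1 rose, where 38.5% of all genes fell and 41.8% rose. Hnf4a fell by 10.13 on the log2 scale, from 245 ± 12.6 to 0.493 ± 0.350 CPM, and the bile acid receptor gene Nr1h4 fell by 9.83. Cebpa fell by 4.61 (residual 9.54 ± 1.90%), and Cebpb, which is also a regulator in myeloid cells, rose from 66.0 ± 2.47 to 413 ± 48.2 CPM (log2 change 1.43; adjusted p = 9.1e-12, edgeR).

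The genes whose level most resembled the members' sum across the 12 sorted libraries were ranked by Spearman's rho among 14234 genes. The first 2 were liver genes, Cdo1, a cysteine dioxygenase (0.92; residual 0.297%), and Fga, a fibrinogen chain (0.92; residual 0.397%). They were followed by Rpusd4 (0.91), Gpaa1 (0.90) and Pstpip1 (0.90), which were higher in sorted cells than in bulk liver, at 35.8, 55.0 and 101 CPM against 9.27, 36 and 0.571. The 38 genes of the secreted and intracellular lists that could be compared had a median rho of 0.50, from -0.32 to 0.92, and all genes had a median of 0.02. These values are descriptions over 12 libraries of shared depth and input.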

How the data were processed

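Total RNA had been isolated with a column kit and DNase, per the labels' protocols. The authors deposited whole-number counts per gene and TPM values per gene, in which each column is scaled to a fixed total. Another deposited table of variance-stabilised values was not used. The submitters' processing notes name DESeq2 1.34.0, featureCounts 1.5.1, RSEM 1.3.0, STAR 2.5.2b and FastQC 0.11.5, on GRCm38, without their roles, a strand setting or an annotation release. A column whose name carries a further final character than its label was matched to that label, and 0 columns were left without a sample. Symbols matched 48348 gene IDs. Gene positions come from GENCODE M21.

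All genes were tested on the counts with edgeR 4.0.16 in R 4.3.3, by its quasi-likelihood F test with TMM factors, a robust fit and filterByExpr over groups, at a Benjamini-Hochberg threshold of 0.05. The contrast with bulk held all 14 libraries and averaged the 4 sorted groups; the input tests held the 12 sorted libraries. Ratios used 0.5 added counts and exact permutation over 91 assignments. Correlations used 0.5 added counts and 100000 permutations. TPM gave levels per length. Alternatives were library totals, DESeq2 1.42.0 and its size factors, limma 3.58.1 (voom, and log2 TPM), filters on low counts, a replicate block and leaving out libraries. The fits were tested on simulated data. Depth was 6723357 to 14496314 counts, so 1 count is at most 0.149 CPM. The members and the 12 lists (134 genes, all matched) were chosen with earlier results of these data known. Named from each list were up to 4 genes with the highest mean CPM over 14 libraries, plus Ptprc, and the 5 genes most like the members' sum among tested genes with at least 1 CPM in sorted libraries. Single values of some list genes are not reported here.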

Additional observations from a re-analysis of the deposited data

How the results depend on the processing

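All 10 members fell against bulk liver under each of the 23 alternatives run, and the slope on cell number, 2500 against 20000 and 10000 against 20000 cells called 0 members under each of theirs. In 5000 against 20000 cells DESeq2 called 1 member (Vtn, adjusted p = 0.0490) and edgeR without a filter on low counts called 3 (Vtn, adjusted p = 0.00534; Gc, 0.0121; Alb, 0.0163). The test of any difference called 2 members without the filter. Calls over all genes grew as well, from 13 of 14795 in 5000 against 20000 cells to 87 with DESeq2 and to 203 of 28315 without the filter. In the test of any difference they went from 44 of 14795 to 605 of 28315 without the filter. The cause of these gains was not tested. The summed residual was 0.110% with TMM factors and 0.364% in TPM, and 0.248 to 0.260% when single libraries were left out. Of the 9 relations with Alb, 5 passed as reported, 3 in log2(TPM + 0.1) and 2 to 6 when single libraries were left out. No ratio to Alb passed the adjusted threshold under any alternative, and the number of assignments precludes a pass by a single ratio on its own. Requiring 10 counts in every library of a group removed Fetub from the input tests.

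Replicate numbers did not pair the libraries: deviations of same-numbered sorted libraries correlated at -0.30 to 0.30 over 18 pairs, and 4 of 12 libraries correlated best with their own number. With the replicate number as a block, 10 members were called against bulk liver and 0 in each input test, as without it. Low counts limit Fetub and Itih1 most, and 3 libraries per input limit every comparison of inputs.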
